A study of Mus musculus with 19 samples.

Results

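The subject was 3 repeat-like loci that collect very many reads in ChIP-seq of mouse ESCs (embryonic stem cells, which are pluripotent), with antibodies to the histone marks H3K27me3, H3K9me2 and H3K9me3. The members were 7 tiles of 2 kb of the 1327469 tiles of the NCBIM37 genome that the table holds. There were 3 neighbouring tiles on chromosome 2 over *Gm10801* and *Gm10800*, 1 tile on chromosome 9, and 3 neighbouring tiles on chromosome 17 at *AY036118*. They had been chosen from the measured values themselves, for their high reads in Input and in the marks and, for some, for a fall of H3K9me2 at day 8. Their read shares and levels over Input, and the change of H3K9me2 at day 8, are therefore given as a description, with no test.

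Mouse centromeres are flanked by pericentromeric heterochromatin made of major (gamma) satellite, an AT-rich tandem repeat present in very many copies, which in ESCs is DNA-methylated and carries H3K9me3 laid down by the SUV39H enzymes. Ribosomal DNA is the tandem array of transcription units for the 45S precursor of 18S, 5.8S and 28S ribosomal RNA, and its CpG-rich copies exist in active and silent states. Most copies of both repeats are missing from the assembled genome, and reads from the missing copies can align to the few that are assembled. H3K9me2 and H3K9me3 mark heterochromatin and H3K27me3 is the mark of Polycomb repression. DNMT1 copies DNA methylation onto the new strand after replication.

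Control ESCs (labelled wildtype) were compared with conditional *Dnmt1* knockout cells (labelled DNMT1KO), in which Cre deletes the floxed gene, at day 4 and day 8. The labels name the strain background E14 and the methods describe *Dnmt1* loxP/loxP ESCs of C57BL/6, grown in serum with LIF and induced with 4-hydroxytamoxifen. Each mark had 1 control and 1 DNMT1KO library at day 4 and 2 of each at day 8, so that 18 ChIP libraries were set against a single Input, made from control chromatin. The methods speak of 1 measurement, whether the day 8 libraries came from separate cultures is not stated, so that SE and p-values over them may measure a technical spread only. Reads in tiles ranged from 5669098 to 26181489 over ChIP libraries and were 19010249 in Input. The lowest total was that of the day 8 H3K9me3 DNMT1KO library of replicate 1, in which the median tile held 3 reads. Within *Dnmt1*, the 2-kb tile at chr9:20744001-20746000 held 6 to 11 reads in each of 9 control ChIP libraries and 0 to 4 in each of 9 DNMT1KO libraries. This tile was picked after its values were seen, and the groups do not overlap there.

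The 4 tiles on chromosomes 2 and 9 shared sequence with a tandem array that opens the assembled chromosome 9. In that array, chr9:3000001-3038000, the DNA matched itself best at a shift of 234 bp (71.2% of bases identical), followed by 468 bp (59.0%). Stretches matching the array covered 792 bp of the *Gm10800* tile, 685 bp and 249 bp of the 2 tiles over *Gm10801*, and 402 bp of the chromosome 9 tile, and none of the chromosome 17 tiles (blastn, E-value at most 1e-05). The best single alignments were 92.55% to 94.96% identical. To show this repeat, 1 unit of 234 bases from the *Gm10800* tile is printed with its best match in each of the other satellite-like tiles and in the array, all from the NCBIM37 genome, 5′ to 3′, with CpG sites in capitals.
Gm10800 tile, chr2:98506702-98506935, plus strand: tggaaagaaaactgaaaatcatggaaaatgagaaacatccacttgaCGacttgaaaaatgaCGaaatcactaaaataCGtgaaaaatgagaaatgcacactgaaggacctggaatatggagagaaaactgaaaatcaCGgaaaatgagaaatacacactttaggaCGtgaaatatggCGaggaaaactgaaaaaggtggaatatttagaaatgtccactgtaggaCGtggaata
first Gm10801 tile, chr2:98503799-98504000, minus strand: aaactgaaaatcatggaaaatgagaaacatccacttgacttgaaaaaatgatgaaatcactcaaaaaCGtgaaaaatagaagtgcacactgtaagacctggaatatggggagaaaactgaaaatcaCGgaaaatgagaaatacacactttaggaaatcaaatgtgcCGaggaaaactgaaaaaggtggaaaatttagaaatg
second Gm10801 tile, chr2:98504009-98504242, minus strand: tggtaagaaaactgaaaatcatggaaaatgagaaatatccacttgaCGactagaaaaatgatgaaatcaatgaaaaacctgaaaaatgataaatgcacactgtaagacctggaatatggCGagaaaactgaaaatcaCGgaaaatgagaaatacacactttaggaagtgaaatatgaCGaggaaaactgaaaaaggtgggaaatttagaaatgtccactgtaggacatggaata
chromosome 9 tile, chr9:35112942-35113175, plus strand: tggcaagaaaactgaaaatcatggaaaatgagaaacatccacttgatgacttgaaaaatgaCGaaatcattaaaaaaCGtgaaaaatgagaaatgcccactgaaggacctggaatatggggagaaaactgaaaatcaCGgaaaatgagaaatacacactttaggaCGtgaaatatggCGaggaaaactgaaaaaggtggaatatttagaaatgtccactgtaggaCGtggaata
chromosome 9 array, chr9:3014113-3014346, minus strand: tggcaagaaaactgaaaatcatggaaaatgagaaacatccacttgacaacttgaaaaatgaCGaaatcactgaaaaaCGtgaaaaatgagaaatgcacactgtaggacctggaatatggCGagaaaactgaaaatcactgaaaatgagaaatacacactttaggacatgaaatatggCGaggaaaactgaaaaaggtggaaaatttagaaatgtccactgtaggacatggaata

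The match of the chromosome 9 tile was 97.4% identical to the printed unit of the *Gm10800* tile, that of the array 95.7%, and those of the *Gm10801* tiles 92.7% over 234 bases and 91.3% over 206 aligned bases. CpG sites numbered 7 in the *Gm10800* unit, 6 in the chromosome 9 unit, 4 each in the array unit and in that of the second *Gm10801* tile, and 3 in the shorter match of the first *Gm10801* tile. The label "satellite-like" thus held for all 4 tiles as a match to this array. No satellite consensus sequence was used here, so they are not assigned to a named satellite.

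*Gm10801* (ENSMUSG00000075015) is annotated as protein-coding at chr2:98502394-98504240, plus strand, with 3 exons and 510 bp of coding sequence, and spans the first 2 tiles (98502001 and 98504001). *Gm10800* (ENSMUSG00000075014) is annotated as protein-coding at chr2:98506704-98507458, minus strand, with 5 exons and 660 bp of coding sequence, and lies in the third tile, 98506001. That gene model lies wholly inside the 792-bp stretch matching the array, chr2:98506702-98507493. The chromosome 9 tile, 35112001 to 35114000, is intergenic, with *Gm5614* nearest at 22581 bp. GC content was 35.9%, 37% and 36.6% for the chromosome 2 tiles and 41.9% for the chromosome 9 tile, with 20 to 32 CpG sites per tile.

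The 3 tiles on chromosome 17, chr17:39980001-39986000, were of another kind, with GC contents of 67.6%, 65.8% and 58.9% and 206, 211 and 177 CpG sites. They shared no 31-mer with any satellite-like tile. *AY036118* (ENSMUSG00000045999), annotated as a pseudogene with 4 exons at chr17:39985048-39985772, minus strand, lies in the third of them, and the other 2 tiles are intergenic, 3048 and 1048 bp from it. RefSeq (GRCm38.p6) places *Rn18s-rs5*, a pseudogene named as a sequence related to 18S ribosomal RNA, over one end of *AY036118*, and this name is the ground for the label "ribosomal DNA-like" used below, as no ribosomal RNA sequence was compared. A stretch of 908 aligned bases, chr17:39983626-39984532, was 98.0% identical to chr6:3150770-3151677. The 200 bases densest in CpG, with 33 sites, and the first 120 bases of the stretch shared with chromosome 6 are printed to show how the sequence differs from the satellite-like unit, from NCBIM37, plus strand, 5′ to 3′, with CpG sites in capitals.
densest in CpG, chr17:39982635-39982834: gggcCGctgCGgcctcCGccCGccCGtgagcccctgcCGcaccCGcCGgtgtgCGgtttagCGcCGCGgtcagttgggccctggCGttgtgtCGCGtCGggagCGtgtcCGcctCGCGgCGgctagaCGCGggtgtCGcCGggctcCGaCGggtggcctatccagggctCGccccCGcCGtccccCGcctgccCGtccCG
shared with chromosome 6, chr17:39983626-39983745: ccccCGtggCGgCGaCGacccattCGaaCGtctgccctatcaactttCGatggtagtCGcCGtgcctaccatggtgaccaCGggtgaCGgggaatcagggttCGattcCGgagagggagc

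In Input the satellite-like tiles were the 4 tiles with the most reads of the genome. The *Gm10800* tile held 239448 reads, 1.26% of the library (exact binomial 95% interval 1.25% to 1.26%), the first *Gm10801* tile 72779, the chromosome 9 tile 15247 and the second *Gm10801* tile 4868. The chromosome 17 tiles ranked 21st, 24th and 28th, with 1408, 1023 and 930 reads. Intervals cover counting error within 1 library only. The reads carry no molecular identifiers and removal of duplicates is not stated, so reads may not be independent and the intervals may be too narrow. The tiles beside the satellite-like loci held few reads, with 2 and 9 in Input on either side of the chromosome 2 locus and 13 and 7 beside the chromosome 9 tile, against a median tile of 15.

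H3K9me3 was the mark enriched at the satellite-like tiles, and H3K9me2 and H3K27me3 lay below Input there. Together the 4 tiles held 4.60% to 6.17% of all reads in the 6 H3K9me3 libraries (median 5.71%), against 1.75% in Input. They held 0.848% to 1.26% in H3K9me2 libraries and 0.444% to 0.586% in H3K27me3 libraries. The *Gm10800* tile alone took 3.38% to 4.59% of reads in H3K9me3, 0.61% to 0.925% in H3K9me2 and 0.325% to 0.436% in H3K27me3, and it ranked first among all tiles in each of the 19 libraries.

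Levels over Input, the log2 ratio of the read share in a ChIP library to that in Input, separated the marks at the chromosome 2 locus without overlap. For H3K9me3 the level was 1.40 in control and 1.39 in DNMT1KO at day 4, 1.80 and 1.73 in control at day 8, and 1.82 and 1.68 in DNMT1KO at day 8. All H3K9me3 libraries were thus at 2.63 to 3.53 times Input, and both day 4 libraries were lower than the 4 of day 8. For H3K9me2 it was -0.70 in control and -1.04 in DNMT1KO at day 4, -0.47 and -0.84 in control at day 8, and -0.93 and -0.86 in DNMT1KO at day 8. The 3 DNMT1KO libraries were the lowest of the mark, and the day 8 control libraries differed from each other by more than the second of them differed from DNMT1KO. For H3K27me3 it was -1.95 in control and -1.89 in DNMT1KO at day 4, -1.98 and -1.96 in control at day 8, and -1.58 and -1.61 in DNMT1KO at day 8. The 4 libraries of control cells and of day 4 DNMT1KO cells lay close together at 0.254 to 0.271 times Input, and the 2 day 8 DNMT1KO libraries stood above them.

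The chromosome 9 tile, on another chromosome, repeated these levels. H3K9me3 ranged from 1.40 to 1.84 (median 1.72) over 6 libraries, H3K9me2 from -1.03 to -0.41 (median -0.84), and H3K27me3 from -2.02 to -1.58 (median -1.92).

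At the ribosomal DNA-like tiles the order of the marks was different, with H3K27me3 on top. The H3K27me3 level over Input of the chromosome 17 locus was 2.49 in control and 2.03 in DNMT1KO at day 4, 3.10 and 1.78 in control at day 8, and 1.94 and 0.14 in DNMT1KO at day 8. For H3K9me3 it was 0.92 in control and 0.41 in DNMT1KO at day 4, 1.59 and 0.16 in control at day 8, and 0.78 and -0.42 in DNMT1KO at day 8. For H3K9me2 it was -1.85 in control and -1.76 in DNMT1KO at day 4, -2.08 and -2.61 in control at day 8, and -1.70 and -0.74 in DNMT1KO at day 8. H3K27me3 was above Input in 6 of 6 libraries, H3K9me3 in 5 of 6, and H3K9me2 was below Input in 6 of 6. The day 8 DNMT1KO library of replicate 2 was nearest to Input among the libraries of H3K27me3 and of H3K9me2. The *AY036118* tile had medians of 1.74 for H3K27me3, 0.41 for H3K9me3 and -1.80 for H3K9me2.

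**Figure D1:**
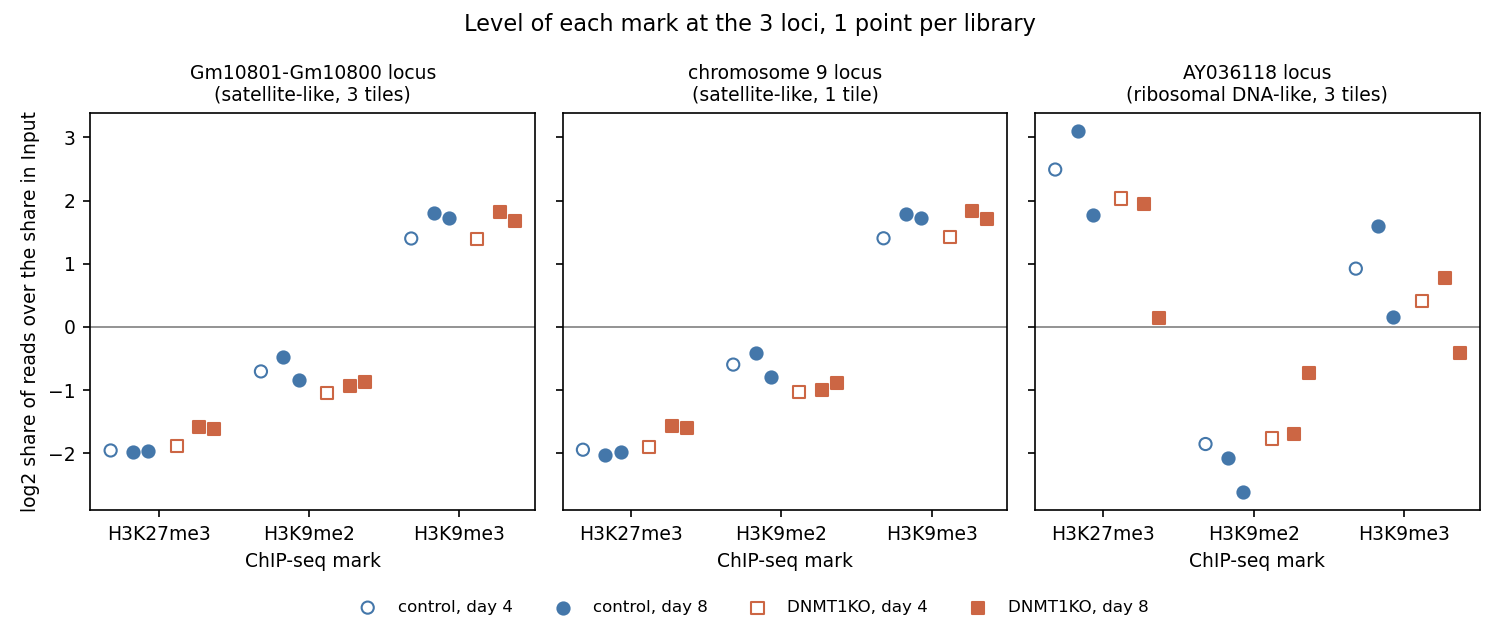
Level over Input of each mark at the 3 loci (y axis, log2 of the share of reads in the ChIP library over the share in Input; x axis, mark), with 1 point per library, blue circles for control, orange squares for DNMT1KO, open for day 4 and filled for day 8. The chromosome 2 and chromosome 9 loci show the same order of marks, with H3K9me3 between 1.39 and 1.84 and the others below 0, whereas at the *AY036118* locus H3K27me3 reaches 3.10 and the libraries of 1 mark spread widely.

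The *Gm10800* tile, the first *Gm10801* tile and the chromosome 9 tile kept nearly fixed proportions to each other in every library, whatever the mark. The *Gm10800* tile held 14.8 to 16.5 times the reads of the chromosome 9 tile over 18 ChIP libraries (15.7 in Input), although the read share of the *Gm10800* tile itself ran from 0.325% to 4.59%. The first *Gm10801* tile held 0.263 to 0.305 of the reads of the *Gm10800* tile (0.304 in Input). The second *Gm10801* tile followed less closely, with 0.0138 to 0.0234 of the reads of the *Gm10800* tile, a range of 1.70 times. Its median proportion was 0.0193 in H3K27me3, 0.0196 in H3K9me2 and 0.0160 in H3K9me3 libraries. These tiles share repeat sequence and libraries, so they are not separate measurements of a condition. On chromosome 17 the first tile held 1.08 to 1.42 times the reads of the second and 1.11 to 1.82 times those of the *AY036118* tile.

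**Figure D2:**
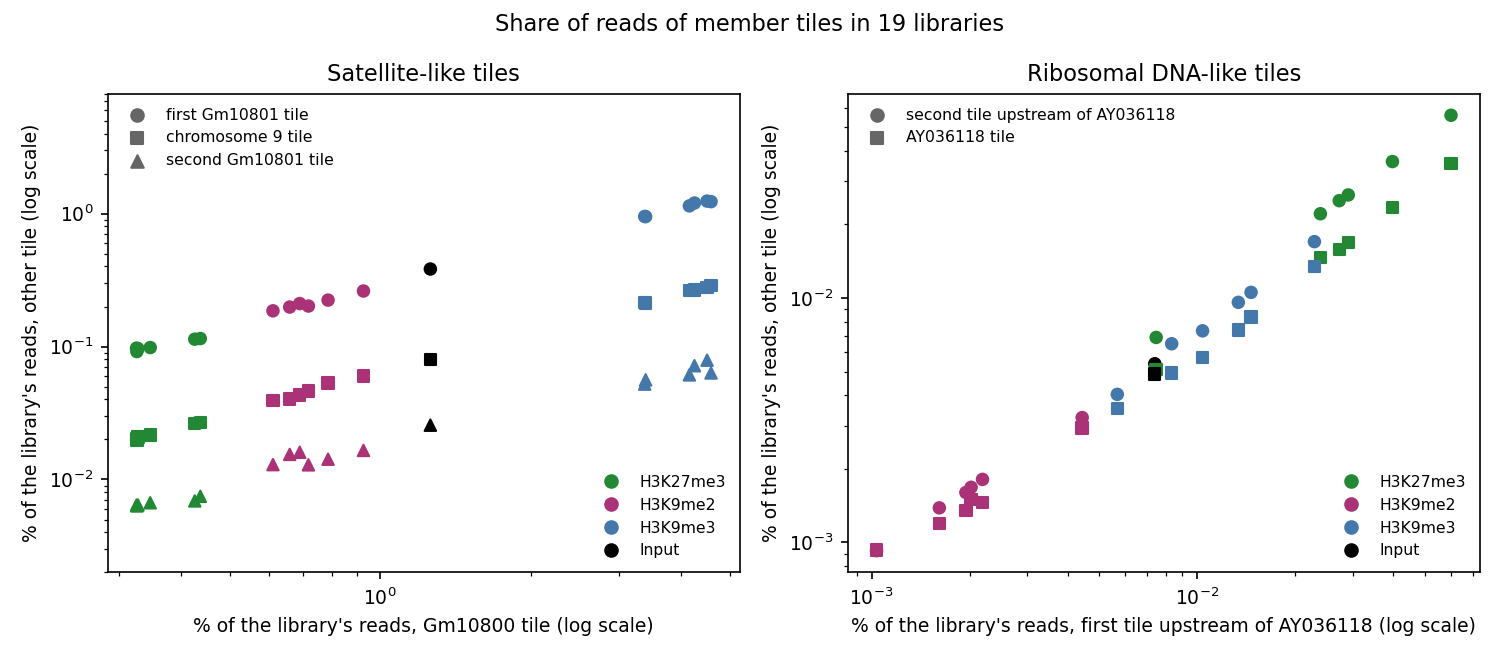
Share of the library's reads in member tiles (both axes in percent, log scales), with 1 point per library and tile, colours for the marks and Input (black) and shapes for the tiles. Left, the other satellite-like tiles against the *Gm10800* tile lie near parallel lines over the marks, the second *Gm10801* tile less closely. Right, the ribosomal DNA-like tiles are plotted against the first tile upstream of *AY036118*, with H3K27me3 at the top and H3K9me2 at the bottom.

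In H3K27me3, the satellite-like tiles took a larger share of reads in both day 8 DNMT1KO libraries than in both control libraries, still far below Input. The chromosome 2 locus held 0.424% and 0.429% of reads in control and 0.559% and 0.546% in DNMT1KO, and these groups did not overlap. The difference of the mean log2 levels, DNMT1KO minus control, was 0.37 ± 0.02 (SE, n = 2 per group), a ratio of 1.30. At the chromosome 9 tile it was 0.41 ± 0.02 (SE, n = 2 per group). At day 4, with 1 library each, it was 0.07 and 0.05. By tile, the day 8 difference was 0.40 at the *Gm10800* tile, 0.27 at the first and 0.17 at the second *Gm10801* tile. In limma's fit across all tiles none of these passed, with adjusted p from 0.794 to 0.928 at the 4 tiles. The fit called 0 of the 7 member tiles, beside 0% of the 1255417 tiles tested (adjusted p-value threshold 0.05), with 96211 tiles at an unadjusted p under 0.05, so a count of 0 among the members is the background. The spread that limma shares across tiles, mostly of few reads, gave an SE of 0.36 to 0.37 at these tiles, far above that of their own 4 libraries, and exact permutation of 2 against 2 libraries cannot give a p under 0.333. The median difference over all tiles tested was 0.05.

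In H3K9me2 the means of the chromosome 2 locus and the chromosome 9 tile were lower in DNMT1KO, which is part of why tiles were chosen and is given without a test. The chromosome 2 locus held 1.2% and 0.933% of reads in day 8 control and 0.872% and 0.917% in day 8 DNMT1KO. The groups did not overlap, but the second control library was within 0.03 of the nearer DNMT1KO library on the log2 scale. The difference was -0.24 ± 0.19 (SE, n = 2 per group) at the chromosome 2 locus and -0.34 ± 0.20 at the chromosome 9 tile, and at day 4 it was -0.34 and -0.43 with 1 library each. At day 8 the groups overlapped at both *Gm10801* tiles, with differences of -0.17 at the first and 0.11 at the second. Of the 4 satellite-like tiles, 2 were lower in both same-numbered pairs, beside 263886 of the 1040359 tiles with at least 10 Input reads. The numbers were not shown to pair the libraries.

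H3K9me3 at the satellite-like tiles differed little between genotypes. The chromosome 2 locus held 5.83% and 5.53% of reads in day 8 control and 5.88% and 5.36% in day 8 DNMT1KO, and the groups overlapped. The log2 difference was -0.02 ± 0.08 (SE, n = 2 per group) there and 0.02 ± 0.07 at the chromosome 9 tile, and -0.01 and 0.02 at day 4. The second *Gm10801* tile was at -0.27, with groups that did not overlap. Limma's adjusted p ran from 0.899 to 0.997 at the 4 tiles, and the fit called 0 of the 7 members beside 0% of 1256638 tiles tested, with 78379 tiles at an unadjusted p under 0.05. The sign of these small values depends on the scaling, since relative to each library's median tile the chromosome 2 locus was 0.13 higher in DNMT1KO.

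At the ribosomal DNA-like tiles the mean H3K27me3 level of day 8 DNMT1KO libraries was below that of control, with a wide spread. The chromosome 17 locus held 31516 and 13501 reads in control and 13729 and 5094 in DNMT1KO, which were 0.152%, 0.0606%, 0.0681% and 0.0195% of the libraries. The groups overlapped, as the second control library was slightly below the first DNMT1KO library. The log2 difference was -1.40 ± 1.12 (SE, n = 2 per group), and -0.46 at day 4. Between libraries of the same replicate number it was -1.16 and -1.64, but the numbers were not shown to pair the libraries. Limma's adjusted p was 0.669 to 0.673 at the 3 tiles, with an SE of 0.64 to 0.69, below the 1.12 of the locus itself.

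H3K9me3 and H3K9me2 of this locus had mean differences of opposite sign. H3K9me3 held 10003 and 3829 reads in day 8 control and 1721 and 2578 in DNMT1KO, the first of these from the library of lowest depth. Limma's adjusted p at the 3 tiles was 0.796 to 0.822, with an SE of 0.62 to 0.64, below the 0.93 of the locus itself. The log2 difference of the locus was -0.70 ± 0.93 (SE, n = 2 per group) with overlapping groups, and day 4 gave -0.52. Leaving out 1 library at a time gave 0.02 without the first control library, -1.41 without the second, -1.29 without the first DNMT1KO library and -0.10 without the second, so its size and sign depended on single libraries. H3K9me2 held 927 and 469 reads in day 8 control and 1031 and 2410 in DNMT1KO. The groups did not overlap, with a difference of 1.13 ± 0.55 (SE, n = 2 per group, no test), and day 4 gave 0.09.

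**Figure D3:**
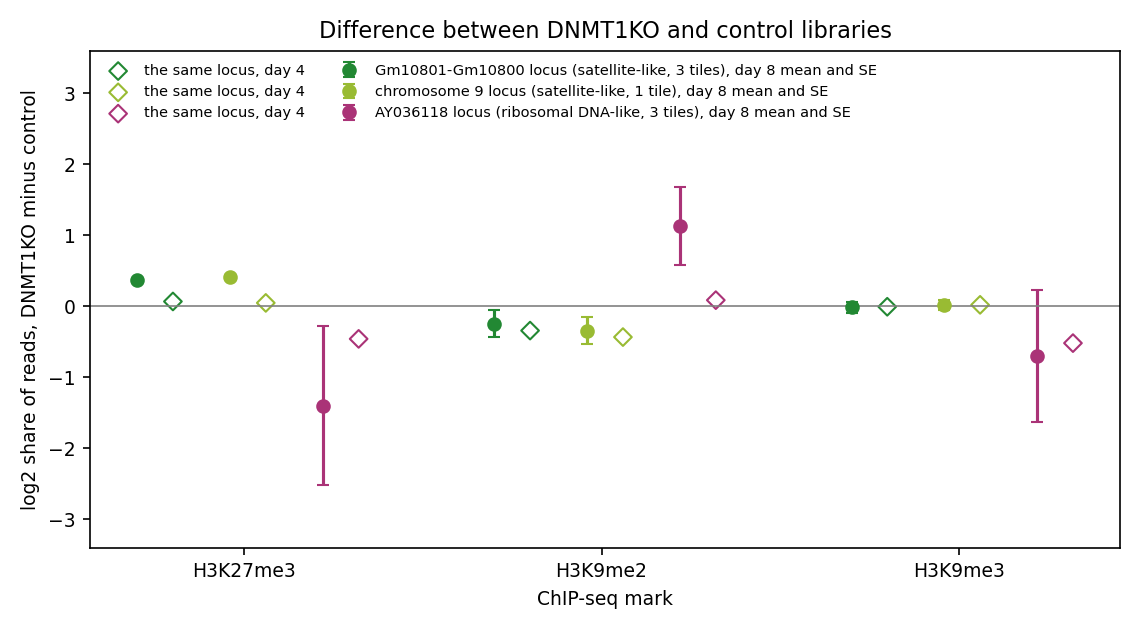
Log2 share of reads in DNMT1KO minus control (y axis) for each mark (x axis) at the 3 loci, with filled points for the day 8 means with SE (2 libraries per group) and open diamonds for day 4 (1 library per group). The satellite-like loci lie together at 0.37 and 0.41 for H3K27me3, while the *AY036118* locus lies at -1.40 with an SE of 1.12.

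The change of the ribosomal DNA-like tiles was near that of other CpG-rich tiles for H3K27me3 and H3K9me2. Outside the members, 263 tiles held at least 177 CpG sites, the lowest number of the 3 members, and at least 10 Input reads (a list made after the values were seen). Their median day 8 difference was -1.42 for H3K27me3, with 251 lower and 12 higher, and 0.96 for H3K9me2, with 243 higher and 20 lower. Among all 1040359 tiles with at least 10 Input reads, the H3K27me3 median was only 0.04 and the H3K9me2 median 0.02. For H3K27me3 the medians of the 263 tiles by replicate number, -1.13 and -1.71, stood beside -1.16 and -1.64 at the chromosome 17 locus. For H3K9me2 the medians of 0.23 and 1.99 stood beside 0.38 and 1.88. These values rest on replicate numbers that were not shown to pair the libraries. With the numbers crossed, the locus gave 0.17 and -2.96 for H3K27me3 and 0.92 and 1.34 for H3K9me2. Crossed medians were not computed for the 263 tiles. In H3K9me3 the median day 8 difference of the 263 tiles was -0.14, with 153 lower and 110 higher. This median was nearer to the -0.04 of all tiles with at least 10 Input reads than to the -0.70 at the locus, where the SE was 0.93. The H3K9me3 control level over Input was 0.88 at the locus, beside a median of -1.52 and a highest value of 0.54 over the 263 tiles. The H3K27me3 control level was 2.44 at the locus, beside a median of 0.57 and a highest value of 5.58. These levels are a description only, since the member tiles were chosen for their reads.

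The tiles on either side of the chromosome 17 locus carried H3K27me3 at fewer reads. The upstream tile, chr17:39978001-39980000, held 46 Input reads and 367 and 232 H3K27me3 reads in day 8 control against 185 and 144 in DNMT1KO. The downstream tile, chr17:39986001-39988000, held 16 Input reads and 137 and 103 reads in control against 79 and 72 in DNMT1KO. In both tiles the day 8 groups did not overlap in reads, with log2 differences of -0.93 ± 0.53 and -0.75 ± 0.36 (SE, n = 2 per group).

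Of the tiles that shared at least 10% of their distinct 31-mers with a locus, those at the start of chromosome 9 with many reads had levels near those of the chromosome 2 locus. The chromosome 2 locus had 19, of which 11 lay at the start of chromosome 9, 7 on chromosome 19 and 1 beside the locus. The 8 on chromosome 9 with over 100 Input reads had median levels over Input of 1.61 to 1.72 for H3K9me3, -0.95 to -0.81 for H3K9me2 and -1.93 to -1.74 for H3K27me3. At day 8, DNMT1KO minus control ran from 0.36 to 0.62 in H3K27me3, from -0.32 to -0.15 in H3K9me2 and from -0.09 to 0.05 in H3K9me3. The 3 with the most Input reads were chr9:3024001-3026000 (*Gm10717*, *Gm10718* and *Gm16869*, 4246 reads), chr9:3002001-3004000 (*Gm10722* and *Gm16869*, 3312 reads) and chr9:3022001-3024000 (*Gm10718* and *Gm16869*, 3079 reads). The 7 tiles on chromosome 19 held 11 to 21 Input reads and did not share the levels, with H3K9me3 medians of -1.79 to 0.61. The chromosome 9 locus had none by this rule. The chromosome 17 locus had 1, chr6:3150001-3152000, which shared 27.4% of its 31-mers, is intergenic with *Samd9l* nearest, held 56 Input reads and had medians of 1.56 for H3K27me3, 0.76 for H3K9me3 and -1.37 for H3K9me2.

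The tiles most like each locus were sought by their values over the 18 ChIP libraries. Among 5958 tiles with a mean of at least 50 reads, those nearest to the chromosome 2 locus were chr9:3002001-3004000 and chr9:3024001-3026000, with Pearson's r of 0.9996 and 0.9995, and chr12:3110001-3112000, intergenic with *Gm9075* nearest, with 0.9995. The last of these matched the array over only 126 of its bases. The tiles nearest to the chromosome 9 locus were chr9:3002001-3004000, chr9:3024001-3026000 and chr9:3036001-3038000, with r of 0.9994, 0.9993 and 0.9991. The tiles nearest to the chromosome 17 locus were chr3:5860001-5862000 (intergenic, *Pxmp3* nearest, r = 0.9896), chr16:57390001-57392000 (an intron of *Filip1l* and *2610528E23Rik*, r = 0.9889) and chr6:3150001-3152000 (r = 0.9865). The first 2 of these shared no aligned sequence with the member tiles. These correlations describe tiles that share libraries and their depths, and 2.10% of the tiles compared reached an r over 0.9 with the chromosome 2 locus and 0.839% with the chromosome 17 locus.

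The 100 other tiles with the most Input reads (188 to 3846, all fewer than at any satellite-like tile) had medians over Input in day 8 control of 0.98 for H3K9me3, -0.08 for H3K9me2 and -0.54 for H3K27me3, and day 8 differences with medians of 0.08 for H3K27me3, -0.13 for H3K9me2 and -0.09 for H3K9me3. Of these 100, 80 were above Input in H3K9me3, 42 in H3K9me2 and 20 in H3K27me3. Over all tiles with at least 10 Input reads, the shares above Input were 32.84%, 46.98% and 31.66%, so that H3K9me2 was near this background. The 336 tiles with the 332 genes annotated as rRNA had few reads (median 14 in Input). These genes were taken by that annotation alone and were not sorted by the kind of ribosomal RNA. The 257 of them with at least 10 Input reads had medians of -0.35 for H3K27me3, -0.31 for H3K9me3 and -0.10 for H3K9me2, close to -0.41, -0.31 and -0.06 over all tiles with as many reads. The median day 8 difference of these tiles was 0.0031 in H3K27me3, 0.14 in H3K9me2 and 0.0043 in H3K9me3. In H3K27me3 the chromosome 17 tiles were at 2.22 to 2.71 in control, and the rRNA-annotated tiles ran from -4.26 to 2.97.

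**Figure D4:**
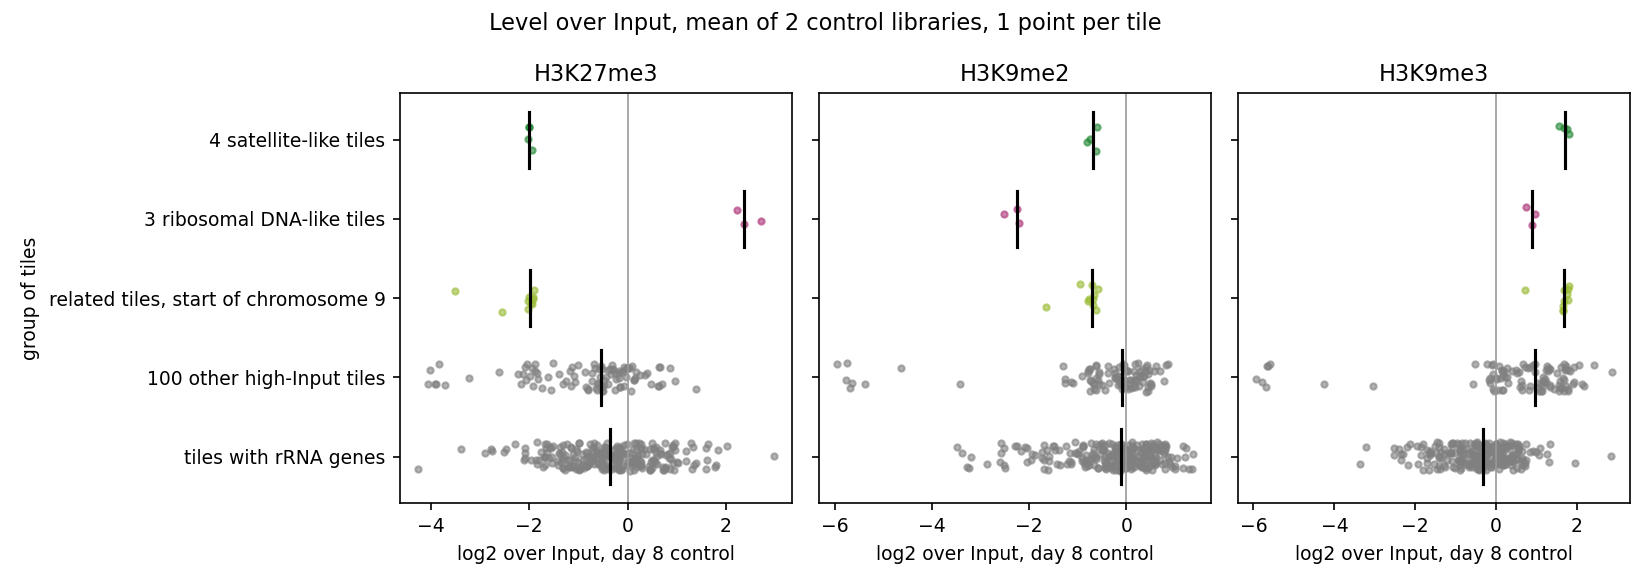
Level over Input in day 8 control (x axes, log2, mean of 2 libraries) for 5 groups of tiles (y axis), with 1 point per tile with at least 10 Input reads and a black bar at the median, in each mark. The satellite-like tiles and the related tiles at the start of chromosome 9 have H3K9me3 medians of 1.72 and 1.68, the latter with a wider spread, and the ribosomal DNA-like tiles lie apart from them in H3K27me3 at a median of 2.36.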

How the data were processed

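After trimming with Trim Galore, the authors aligned the ChIP-seq reads to NCBIM37 (Bowtie2 2.2.9) and dropped those of mapping quality below 20, which bears on repeats. The authors deposited, per 2-kb tile, the log2 of observed over expected reads, with Input as a column of its own and not subtracted. The methods state tiles of 1 kb. Removal of duplicate reads is not stated. Whole read numbers were recovered from the steps of the low values, all of which came out whole (100%), and a tile without reads is written as 0.9 of a read. Depth was 5669098 to 26181489 reads per ChIP library.

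Read shares, levels over Input and differences of day 8 means of log2 shares, with their SE, were computed from recovered reads. Tiles with a read in any of the 4 day 8 libraries of H3K27me3 and of H3K9me3 were tested on the deposited log2 values with the moderated linear model of limma 3.58.1 (R 4.3.3), without an intensity trend, two-sided, and p-values were adjusted over all tiles by Benjamini-Hochberg at a threshold of 0.05. For each of these comparisons, reads were simulated with counting error only, and tiles of many reads were raised or lowered 4-fold. None of 200 changed tiles was called, so a tile that was not called may still differ. The mean error of the log2 changes was small, but raised and lowered tiles were averaged together, so this mean cannot show shrinkage. H3K9me2 at day 8 was not tested. Stretches were aligned with blastn 2.17.0, and genes came from GENCODE vM1. Named were the members, their neighbouring tiles, the 3 related tiles per locus with the most Input reads (at least 10% of 31-mers shared), and the 3 tiles per locus with the highest correlation. Members and lists were chosen with earlier results of these data known. Alternatives are listed below.

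Same-numbered day 8 libraries deviated together with a correlation of 0.073 for H3K27me3 and 0.039 for H3K9me3, and replicate numbers were not taken to pair them. Most tiles held few reads, whose counting error lowers a correlation, so these values cannot exclude a pairing. With the number as a block, limma's H3K27me3 SE was 0.39 at the chromosome 17 tiles, beside 0.64 to 0.69 without it. At the satellite-like tiles it was 0.38 with the block, beside 0.36 to 0.37.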

Additional observations from a re-analysis of the deposited data

How the results depend on the processing

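The number of tiles called by limma was 0 for both marks in the reported fits, and it depended on how the spread was modelled. An eBayes trend gave 3067 tiles for H3K27me3 and 107 for H3K9me3, and limma-voom on recovered reads gave 5408 and 485. Leaving out each replicate in turn gave 0 to 0 tiles for H3K27me3 and 0 to 76307 for H3K9me3, the latter without the DNMT1KO library of replicate 2, and 6555 without that of replicate 1. No member tile was called under any of these, but under the trend the SE at the members was 5.84 or more for H3K27me3 and 1.89 or more for H3K9me3, so that fit says nothing about them. With the replicate number as a block 0 tiles were called for either mark, with 118512 and 71926 at an unadjusted p under 0.05. A filter on mean reads, no filter, and centring on the median tile also gave 0.

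All H3K27me3 differences of single member tiles kept their direction under every alternative. For H3K9me3, centring on the median tile turned the *Gm10800* tile to 0.14 and the first *Gm10801* tile to 0.0975. Leaving out each replicate in turn gave values of both signs, -0.0959 to 0.010 at the first *Gm10801* tile, -0.0757 to 0.0681 at the *Gm10800* tile, -0.0461 to 0.0804 at the chromosome 9 tile, -1.39 to 0.0627 at the first chromosome 17 tile and -1.39 to 0.0504 at the *AY036118* tile.

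Of the values over a locus, scaling to each library's median tile moved the H3K27me3 difference to 0.29 (chromosome 2) and 0.33 (chromosome 9), that of H3K9me3 to 0.13 and 0.16, and the control levels over Input to -1.58 and -1.61 for H3K27me3 and 2.03 and 2.03 for H3K9me3. Leaving the 1% of tiles with the highest Input out of the total gave levels of -2.00 and -2.04 for H3K27me3 and 1.83 and 1.82 for H3K9me3. Means of deposited values gave 0.28 and -0.11 for the chromosome 2 differences of H3K27me3 and H3K9me3, and levels of -1.99 and 1.67. The cause of these shifts was not tested. The other 38 values under these 3 scalings and summaries moved by less than 1 SD between replicates. That SD rests on 2 libraries per group and is wide where they differ, so larger shifts can pass under it. The H3K9me2 difference on chromosome 2, for 1, went from -0.24 to -0.11 with means of deposited values.

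Without each replicate in turn, the locus differences were 0.36 to 0.39 for H3K27me3, -0.43 to -0.06 for H3K9me2 and -0.08 to 0.05 for H3K9me3 on chromosome 2. They were 0.39 to 0.43 for H3K27me3, -0.53 to -0.15 for H3K9me2 and -0.05 to 0.08 for H3K9me3 on chromosome 9, and -2.30 to -0.49 for H3K27me3, 0.65 to 1.61 for H3K9me2 and -1.41 to 0.02 for H3K9me3 on chromosome 17. Depth limits values of tiles with few reads, such as the flanking tiles with under 50 Input reads.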
